A study of Mus musculus with 11 samples.

Results

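The genes described here encode the subunits of the oxidative phosphorylation system of the mouse mitochondrion, followed in sorted cells of the developing kidney. They were taken by symbol: every gene named as an Nduf, Sdh, Uqcr, Cox4 to Cox8 or Atp5 gene, with Cyc1 and Cycs. This gave 85 of the 24427 genes in the deposited tables, of which 36 belong to complex I, 4 to complex II, 9 to complex III, 18 to complex IV and 17 to complex V, with cytochrome c (Cycs) as 1 more. The symbol pattern also takes in Cox7a2l, a factor that joins complexes into supercomplexes, Atp5s, a coupling factor, and Atp5sl, which is linked to complex I assembly and not to ATP synthase. Ndufa4 carries a complex I name, although its protein is now placed with complex IV, and it is counted here by its name.

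Cells were sorted by flow cytometry from kidneys of CFW mice, an outbred stock, and their RNA was sequenced in 11 libraries. The E16.5 Six2+ cells (n = 3) and E16.5 Six2- cells (n = 3) came from Six2TGC/+ embryos, in which Six2 regulatory sequence drives a GFP and Cre fusion. E16.5 Cited1+ cells (n = 3) came from Cited1tagRFP/+ embryos, and P2 Six2+ cells (n = 2) from Six2TGC/+ pups at postnatal day 2. Six2 and Cited1 mark nephron progenitors, the stem-like mesenchyme that forms nephrons until shortly after birth; the Six2- cells are the rest of the kidney that passed the sort. The values come in 2 tables, and tests were run only within each: Six2+ against Six2-, and Cited1+ against P2 Six2+. In the second pair stage, marker and reporter allele differ together and cannot be told apart. The labels do not say that replicates are from different animals, so each p-value speaks only of how these libraries vary, technical variation included.

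Oxidative phosphorylation moves electrons from NADH through complex I, or from succinate through complex II, by way of coenzyme Q to complex III, then by cytochrome c to complex IV, which reduces oxygen. Complexes I, III and IV pump protons, and complex V, the ATP synthase, lets them back to make ATP. All the genes here are nuclear; the subunits encoded in mitochondrial DNA have no rows in the tables. Nephron progenitors are known to rely strongly on glycolysis, and mitochondrial respiration is known to increase as they differentiate.

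Some libraries stood apart. Six2 was at 315, 351 and 354 RPKM (reads scaled to transcript length and to sequencing depth) in Six2+ libraries, against 2.72, 2.90 and 17.0 RPKM in Six2- libraries; it was at 279, 374 and 286 RPKM in Cited1+ libraries and at 129 and 146 RPKM in P2 Six2+ libraries. Cited1 was at 196, 193 and 215 RPKM in Cited1+ libraries, against 2.83 and 4.68 RPKM in P2 Six2+ libraries. Six2- replicate 3 thus held more Six2 than the other Six2- libraries. Six2+ replicate 2 carried the largest share of cytosolic ribosomal protein values, 22.9% of its sum, where the other libraries had 12.1% to 18.5%. Cited1+ replicate 2 differed from replicates 1 and 3 in Xist, the RNA made from the inactive X chromosome of female cells, with 140.2 RPKM against 0.0172 and 0.142 RPKM; P2 Six2+ libraries had 0.102 and 158 RPKM. From the spacing of low values the depth came to between 16600000 reads (P2 Six2+ replicate 2) and 44000000 reads (Six2- replicate 2), though only 54.7% to 65.7% of those values lay within 0.05 of a whole read.

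Atp5b, the catalytic beta subunit of ATP synthase, had the highest mean of complex V in all 4 groups, with 593 RPKM in Six2+, 501 RPKM in Six2-, 522 RPKM in Cited1+ and 378 RPKM in P2 Six2+ libraries. Cox4i1, the common form of complex IV subunit 4, had the highest mean of that complex in Six2+ and Six2- libraries, and Cox8a, the common form of subunit 8, in Cited1+ and P2 Six2+ libraries. Ndufa11 was the lowest complex I gene in all 4 groups, with 13.9, 14.9, 11.3 and 6.44 RPKM on average in Six2+, Six2-, Cited1+ and P2 Six2+ libraries. The median complex I gene stood at 64.6, 52.5, 50.8 and 37.9 RPKM in the same groups, and the median complex V gene at 163, 153, 111 and 92.2 RPKM. These are levels per transcript length; levels set across the 2 tables were not tested.

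In all, 5 members were near 0 throughout and were not tested. Cox6a2 and Cox8b, the striated muscle forms of 2 complex IV subunits, were listed at 0 in 11 and 10 of 11 libraries. Cox7a1, another muscle form, reached 1.48 RPKM at most, and Cox7b2 and Cox8c, known from testis, reached 0.48 and 0.357 RPKM. The other 80 members had a mean of at least 1 RPKM in each comparison and were tested in both.

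In Six2+ cells, 7 of the 80 members were higher and 2 lower than in Six2- cells (8.8% and 2.5% of members). Over all 11882 genes tested, 20.5% were called higher and 18.1% lower in the same fit (limma on log2(RPKM + 1), Benjamini-Hochberg adjusted p below 0.05). The members called higher were Ndufv1, Ndufs8, Uqcrfs1, Uqcrc2, Cox6a1, Atp5g2 and Atp5sl, and those lower Cox4i2 and Cox6b2. The groups did not overlap in 22 members higher and 2 lower, and in 29.9% and 22.0% of all genes. The replicate numbers paired these libraries, since same-numbered libraries deviated together. With the number in the fit, 17 members were higher and 3 lower, against 30.3% and 22.2% of all genes. By complex, the calls without the number were 2 higher of 36 in complex I, none of 4 in complex II, 2 higher of 9 in complex III, 1 higher and 2 lower of 13 in complex IV and 2 higher of 17 in complex V.

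Most members leaned upward by a small amount whose size depended on single libraries. The difference was positive in 69 of 80 members, with a median of 0.21 on the log2(RPKM + 1) scale, where the median of all genes was 0.12. Six2+ replicate 2 lay above the mean of replicates 1 and 3 in 80 of 80 members, by a median of 0.45, and in 78 of 78 cytosolic ribosomal protein genes, by a median of 0.67. All genes moved by 0.0060 in that library. Without it, 46 members were positive, their median was 0.033 against 0.099 for all genes, and 4 were called higher and 2 lower, with 17.9% and 16.9% of all genes called. Without Six2- replicate 1 the members' median was 0.14 against 0.13 for all genes, and with array weights it was 0.13 against 0.095. The count of higher members was also 4 (5.0%) without Six2+ replicate 1 and 11 (13.8%) without Six2+ replicate 3. In these fits 16.2% and 17.6% of all genes were called higher. It was 2, 3 and 4 members (2.5%, 3.8% and 5.0%) without Six2- replicates 1, 2 and 3, against 14.6%, 13.7% and 20.1% of all genes. With libraries brought to a common total, 42.5% of the calls over all genes were higher, against 53.2% as deposited, and the members' median was 0.13 against 0.048 for all genes. Scaling by the median ratio gave 46.4%.

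Within same-numbered libraries, the members' median difference, Six2+ minus Six2-, was 0.27 for number 1, 0.40 for number 2 and -0.037 for number 3; over all genes it was 0.11, 0.091 and 0.12. Members were positive in all 3 pairs in 32 of 80 cases (40.0%), against 43.3% of all genes, and negative in all 3 in 3 cases (3.8%), against 29.2% of all genes. Those 3 were Cox4i2, Cox6b2 and Ndufv3. Pair 3 was the pair in which complex I and complex V had medians below 0, of -0.050 and -0.081. Cytosolic ribosomal protein genes had a median of -0.098 in that pair. It holds the Six2- library with the most Six2. It also holds Six2+ replicate 3, which lay below the mean of replicates 1 and 2 in 75 of 80 members, by a median of 0.31. This held in 78 of 78 cytosolic ribosomal protein genes, by a median of 0.53. The part of either library in the pair 3 medians was not tested.

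**Figure D1:**
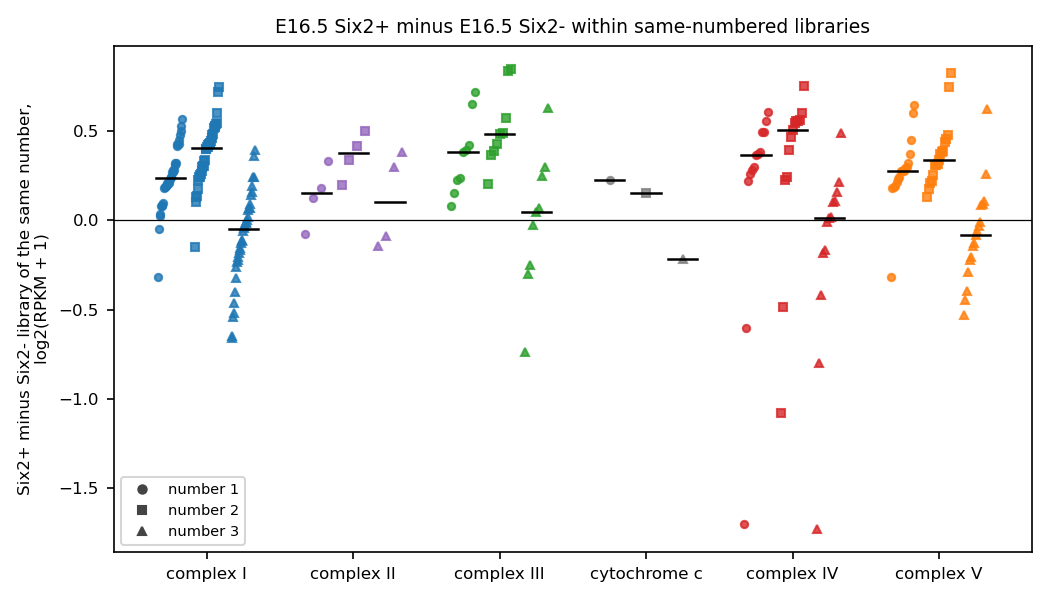
Six2+ minus Six2- library of the same number, in log2(RPKM + 1) (y axis), for each member tested, by complex (x axis); symbols mark the library number and black lines the medians. Complex I medians are 0.24, 0.41 and -0.050 for numbers 1, 2 and 3, and the lowest points in each pair belong to complex IV.

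Complexes I and III had 4 of the 7 upward calls. Uqcrfs1, the Rieske iron-sulfur protein of complex III, had 93.5, 112 and 87.5 RPKM in Six2+ libraries, against 56.3, 61.6 and 56.3 RPKM in Six2- libraries. All 3 Six2+ libraries lay above all 3 Six2- libraries. The log2 difference was 0.73 ± 0.13 (SE; adjusted p = 0.00248), and it was called under all 17 alternative settings, with an adjusted p of 0.0117 at most. Ndufv1, the flavoprotein of complex I that takes electrons from NADH, had 69.7, 90.3 and 73.2 RPKM in Six2+ libraries, against 46.7, 54.5 and 55.5 RPKM in Six2- libraries. Its groups did not overlap either, and the log2 difference was 0.56 ± 0.14 (adjusted p = 0.0135). Of 17 alternatives, 1 lost this call, the fit without Six2- replicate 1 (adjusted p = 0.0597).

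Ndufs8, which carries iron-sulfur clusters of complex I, had 62.7, 78.6 and 61.7 RPKM in Six2+ libraries, against 46.3, 54.6 and 52.1 RPKM in Six2- libraries. This difference of 0.40 ± 0.14 sat at the threshold (adjusted p = 0.0498) and was lost under 10 of 17 alternatives. Uqcrc2, a core protein of complex III, had 90.2, 99.7 and 79.1 RPKM in Six2+ libraries, against 68.9, 71.0 and 64.1 RPKM in Six2- libraries (log2 difference 0.39 ± 0.13, adjusted p = 0.0427). It was lost under 7 of 17 alternatives.

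Complex II, which is also the succinate dehydrogenase of the citric acid cycle, gave no call in the fit as reported. Sdhb, its iron-sulfur subunit, had 93.6, 113 and 85.6 RPKM in Six2+ libraries, against 74.0, 79.9 and 69.5 RPKM in Six2- libraries (0.38 ± 0.14, adjusted p = 0.0637; 0.0143 with the number in the fit). Sdha, the flavoprotein, had 90.2, 99.2 and 93.1 RPKM in Six2+ libraries, against 82.7, 78.4 and 71.2 RPKM in Six2- libraries (0.28 ± 0.12, adjusted p = 0.0969; 0.0488 with the number). Sdhb passed under 5 of 17 alternatives and Sdha under 1. For both, the groups did not overlap. The membrane anchors Sdhc and Sdhd overlapped between groups, with differences of -0.0077 and 0.17 (adjusted p = 0.974 and 0.428). Cycs differed by 0.055 ± 0.19 (adjusted p = 0.842), and this sign turned under several scalings. Its level is uncertain, since 25.9% of its 50-base words also occur in other annotated genes.

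With the replicate number in the fit, 8 complex I genes were higher and Ndufv3, an accessory subunit near the flavoprotein, was lower (-0.33, adjusted p = 0.0292). Besides members called without it, that fit called Ndufb10, Ndufb5, Ndufs1, Ndufs4 and Ndufs5 of complex I, Sdha and Sdhb, Uqcr11 of complex III and Cox7a2l, all higher, besides Ndufv3. Their differences lay between 0.28 and 0.53 for the higher ones. Ndufs5 had 54.8, 79.2 and 24.9 RPKM in Six2+ libraries, against 43.6, 58.5 and 23.3 RPKM in Six2- libraries, so replicate 3 was low on both sides. Cox7c was also lowest at replicate 3 on both sides, with 270.1, 313 and 151 RPKM in Six2+ libraries, against 232, 238 and 149 RPKM in Six2- libraries; it was chosen after its values were seen, and its groups overlapped.

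Both downward calls were in complex IV, in isoforms that have a more common partner. Cox4i2, the isoform of Cox4i1 known from lung and from induction by low oxygen, had 0.947, 1.75 and 0.436 RPKM in Six2+ libraries, against 5.31, 4.80 and 3.77 RPKM in Six2- libraries. The groups were far apart on a low level (-1.50 ± 0.24, adjusted p = 0.00115), and the call held in the 16 alternatives that tested the gene. Cox4i2 made up 0.32%, 0.43% and 0.14% of the summed Cox4i1 and Cox4i2 values in Six2+ libraries, against 2.28%, 1.73% and 1.36% in Six2- libraries. Cox4i1 itself had 294, 402 and 305 RPKM in Six2+ libraries, against 227, 273 and 273 RPKM in Six2- libraries (0.36 ± 0.18, adjusted p = 0.135).

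Cox6b2, the testis-type partner of Cox6b1, had 9.35, 13.6 and 10.4 RPKM in Six2+ libraries, against 14.7, 19.4 and 18.8 RPKM in Six2- libraries (-0.63 ± 0.17, adjusted p = 0.0173). It made up 4.66% to 5.41% of the Cox6b pair in Six2+ libraries, against 8.35% to 9.17% in Six2- libraries. Cox6b1 had 191, 266 and 181 RPKM in Six2+ libraries, against 148, 193 and 206 RPKM in Six2- libraries, and its groups overlapped (adjusted p = 0.412). The call for Cox6b2 was lost under 3 of 17 alternatives, with an adjusted p of 0.0717 at most.

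Cox6a1, the common form of the Cox6a subunit, was the complex IV gene called higher, with 234, 257 and 279 RPKM in Six2+ libraries, against 159, 174 and 198 RPKM in Six2- libraries (0.54 ± 0.15, adjusted p = 0.0201). Cox7a2 had 106, 152 and 109 RPKM in Six2+ libraries, against 86.0, 107 and 101 RPKM in Six2- libraries, with overlap (adjusted p = 0.191). Cox8a had 279, 358 and 271 RPKM in Six2+ libraries, against 214, 245 and 252 RPKM in Six2- libraries, without overlap (0.34 ± 0.16, adjusted p = 0.131). Cox7b differed by 0.030 ± 0.19 (adjusted p = 0.913), a sign that turned when libraries were rescaled, and Cox7a2l by 0.53 ± 0.22 (adjusted p = 0.0909; 0.0124 with the replicate number).

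In complex V, the genes of ring subunit c differed in their shares. The genes Atp5g1, Atp5g2 and Atp5g3 encode the same mature ring protein with different import signals. Atp5g2 had 271, 375 and 257 RPKM in Six2+ libraries, against 179, 211 and 214 RPKM in Six2- libraries (0.56 ± 0.18, adjusted p = 0.0376), a call lost under 7 of 17 alternatives. Its share of the 3 genes was 42.5%, 43.8% and 43.9% in Six2+ libraries, against 36.3%, 35.3% and 36.5% in Six2- libraries. Atp5g3 held 40.9% to 43.9% in Six2+ libraries, against 45.0% to 49.8% in Six2- libraries. Atp5g1 and Atp5g3 differed by 0.12 each in log2 level, with overlapping groups (adjusted p = 0.653 and 0.638). The level of Atp5g2 is uncertain, since 38.3% of its 50-base words also occur in other annotated genes.

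Atp5sl had 11.5, 13.2 and 12.5 RPKM in Six2+ libraries, against 6.98, 7.47 and 7.73 RPKM in Six2- libraries. No library of the groups overlapped (0.67 ± 0.12, adjusted p = 0.00224), and the call held under all 17 alternatives, with an adjusted p of 0.0145 at most. Atp5b and Atp5a1, the head subunits of the ATP synthase, were higher in each Six2+ than in each Six2- library without passing the test (0.24 and 0.26, adjusted p = 0.295 and 0.233).

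Other cell types moved with this comparison, since Six2- cells are a mixture; in bulk RNA, fewer cells of a type and less RNA per cell cannot be told apart. Of the interstitial stroma markers, 12 of 12 tested were lower in Six2+ cells, with summed levels of 94.4 to 118 RPKM in Six2+ libraries, against 2577 to 3810 RPKM in Six2- libraries, and none was at 0. Of the erythroid markers, 7 of 8 tested were lower, with 18.1 to 80.6 RPKM in Six2+ libraries, against 1261 to 13170 RPKM in Six2- libraries. Among the markers called lower, Pdgfra, Lum, Postn, Alas2 and Slc4a1 had Six2+ means below 1 RPKM. These were tested only through their Six2- level, as was Hbb-y, which was not called. Ndufa4l2, a relative of Ndufa4 that the symbol pattern leaves out and that is known from pericytes and low oxygen, had 0.0246, 0.0806 and 0.427 RPKM in Six2+ libraries, against 14.5, 16.4 and 10.1 RPKM in Six2- libraries (-3.63 ± 0.21, adjusted p = 2.59e-06). Its Six2+ values lay below the filter of 1 RPKM, so it was tested only through its Six2- level. The part of these cell types in the differences of the members was not tested.

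The summed value of each complex overlapped between Six2+ and Six2- libraries. All tested members together summed to 9155, 11884 and 8272 RPKM in Six2+ libraries, against 7424, 8873 and 8492 RPKM in Six2- libraries, a ratio of means of 1.18. Complex IV had the highest ratio, 1.25, and complex I the lowest of the 5 complexes, 1.15. Without Six2+ replicate 2 the ratio was 1.05 for all members, 1.12 for complex IV and 1.02 for complex I. Members made up 2.38% to 2.74% of the library sum in Six2+ libraries, against 2.173% to 2.341% in Six2- libraries. These shares did not overlap, whereas the sums did. The library sum includes haemoglobin genes. They held 0.40%, 2.07% and 3.81% of it in Six2- replicates 1, 2 and 3, and 0.023% at most in Six2+ libraries. Shares without haemoglobin were not taken, and its part in this gap was not tested.

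**Figure D2:**
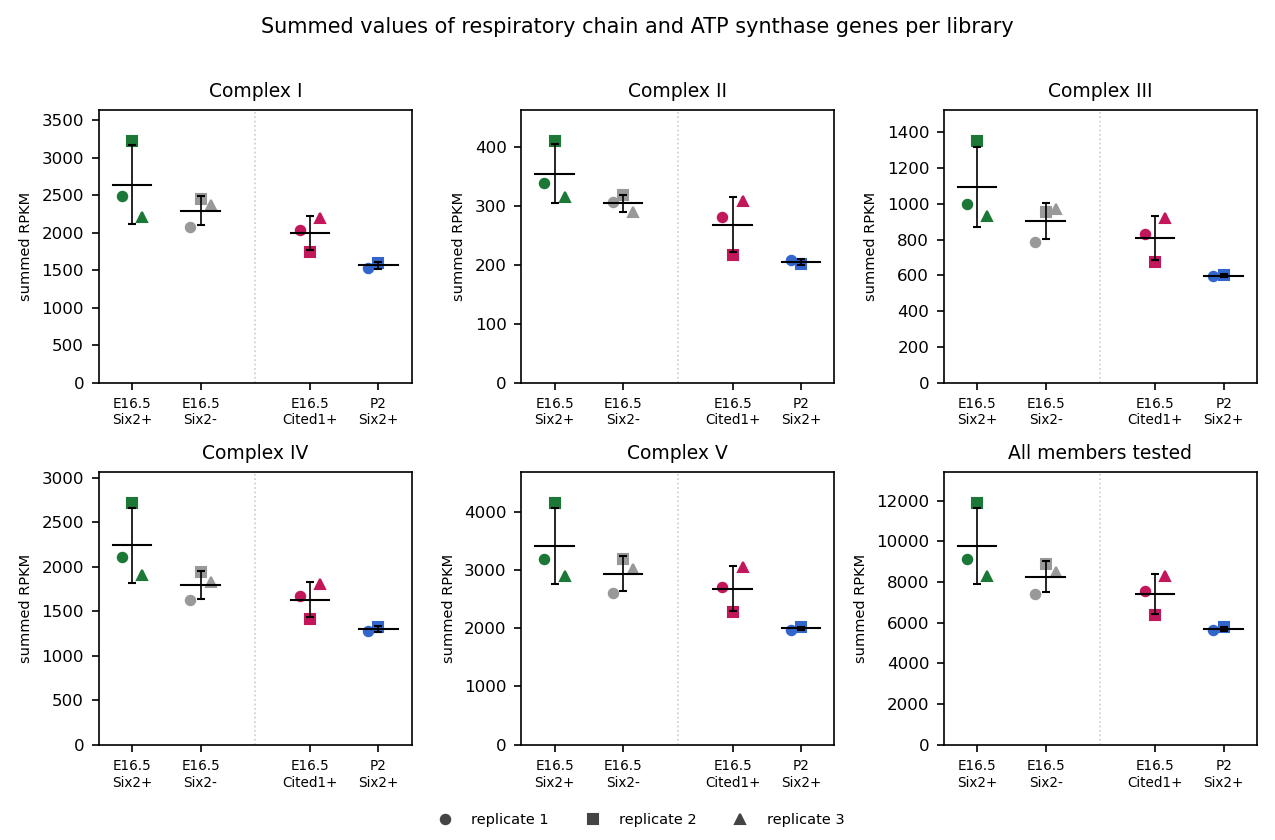
Summed RPKM (y axis) of the tested members of complexes I to V and of all members, per library, in the 4 groups (x axis); symbols mark replicates, horizontal lines the mean and bars the SD, and the dotted line parts the 2 tables. Six2+ replicate 2 is the highest point in each panel, at 11884 RPKM over all members, and Cited1+ replicate 2 is the lowest of its group, at 6367 RPKM.

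In Cited1+ cells at E16.5, 23 of the 80 members were higher than in P2 Six2+ cells and 2 lower (28.8% and 2.5% of members), where 16.3% and 12.7% of all 11876 genes tested were called. The median difference over members was 0.41, against 0.070 over all genes, and 74 of 80 were positive. Complex I had 14 higher and 1 lower of 36, complex III 3 higher of 9, complex IV 3 higher and 1 lower of 13, complex V 3 higher of 17, and complex II and cytochrome c none. The groups did not overlap for 48 members higher and 3 lower, against 33.9% and 24.6% of all genes. Here replicate numbers do not pair the libraries.

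The number of members called turned on Cited1+ replicate 2. Without it, 56 members were higher and 3 lower, against 25.2% and 18.0% of all genes, and the members' median difference was 0.51. Leaving out Cited1+ replicate 1 left 3 of 80 members higher, and leaving out Cited1+ replicate 3 left 8 of 80. In these fits 6.66% and 8.80% of all genes were called higher. Without P2 Six2+ replicate 1 the members' median difference was 0.36, against 0.063 for all genes. Without P2 Six2+ replicate 2 it was 0.44, against 0.074 for all genes. In both fits without a P2 library, the lone P2 library is assumed to vary like the Cited1+ libraries. For 55 of 80 members (68.8%), Cited1+ replicate 2 lay nearer the P2 mean than the mean of Cited1+ replicates 1 and 3. Over all genes this held for 41.5%, and for replicates 1 and 3, treated alike, it held for 8 and 6 of 80 members. Replicate 2 lay below replicates 1 and 3 in 71 of 80 members, by a median of 0.36, and in 68 of 78 cytosolic ribosomal protein genes, by a median of 0.42; over all genes the median was -0.054, and over genes in the members' range of transcript lengths -0.094.

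**Figure D3:**
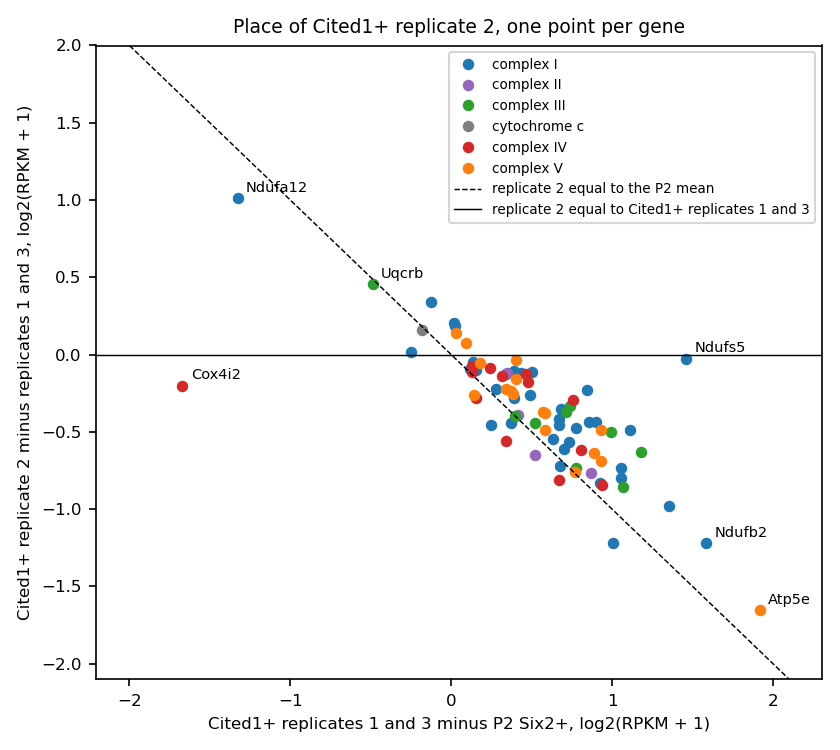
Cited1+ replicate 2 minus the mean of Cited1+ replicates 1 and 3 (y axis) against the mean of replicates 1 and 3 minus the P2 Six2+ mean (x axis), both in log2(RPKM + 1), with 1 point for each of the 80 members; both axes hold replicates 1 and 3, so a downward slope is built in. Points near the dashed line equal the P2 mean in replicate 2, as Atp5e and Ndufa12 nearly do, and points near the solid line equal the other Cited1+ libraries, as Ndufs5 does; 55 of 80 lie nearer the P2 mean.

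Complex I supplied most of the upward calls. Ndufb6, an accessory subunit of its membrane arm, had 40.6, 21.7 and 47.5 RPKM in Cited1+ libraries, against 14.4 and 19.0 RPKM in P2 Six2+ libraries (1.02 ± 0.30, adjusted p = 0.0424). Ndufa7, an accessory subunit of the matrix arm, had 32.9, 24.9 and 37.9 RPKM in Cited1+ libraries, against 12.4 and 19.98 RPKM in P2 Six2+ libraries (0.95 ± 0.23, adjusted p = 0.0216). In both, Cited1+ replicate 2 was the closest to the P2 libraries, without overlap. Ndufb6 lost its call under 7 and Ndufa7 under 5 of 16 alternatives, and 39.0% of the exon bases of Ndufb6 lie opposite Smim27. Ndufs8 had the smallest p among the upward calls and was named for that after its values were seen: 49.99, 45.6 and 57.4 RPKM in Cited1+ libraries, against 31.9 and 26.9 RPKM in P2 Six2+ libraries (0.77 ± 0.13, adjusted p = 0.00589).

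Other complex I genes called higher included Ndufa13, Ndufb8, Ndufa11, Ndufs3, Ndufa6, Ndufv1, Ndufa4, Ndufc2 and Ndufa9, with differences between 0.35 and 0.81. Among them, Ndufs3 is a core subunit of the matrix arm, and Ndufv1 holds the NADH site. Ndufa4 had 181, 110 and 187 RPKM in Cited1+ libraries, against 78.9 and 98.3 RPKM in P2 Six2+ libraries. In each of these genes the groups did not overlap, and 30.0% of the exon bases of Ndufa13 lie opposite Tssk6.

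Ndufa12, an accessory subunit of the matrix arm, was the complex I gene that fell. It had 79.7, 161 and 78.8 RPKM in Cited1+ libraries, against 222 and 181 RPKM in P2 Six2+ libraries (-0.99 ± 0.30, adjusted p = 0.0464), and 7 of 16 alternatives lost the call. Replicate 2 again stood with the P2 side. GENCODE annotates a processed pseudogene, Gm15920, on chromosome 5, which matches 402 bases of Ndufa12 with 2 differences and was not used here. How reads common to them were assigned is unknown.

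Ndufs5, a small subunit on the outer face of the membrane arm, had the largest upward difference of complex I, and its value is uncertain because of a near-identical copy that has its own row. It had 49.8, 50.04 and 52.1 RPKM in Cited1+ libraries, against 34.6 and 9.01 RPKM in P2 Six2+ libraries (1.45 ± 0.45, adjusted p = 0.0469). The copy, BC002163, is a processed pseudogene and ran the other way, with 3.02, 4.20 and 3.22 RPKM in Cited1+ libraries, against 16.9 and 24.8 RPKM in P2 Six2+ libraries. In Six2+ libraries BC002163 had 10.1, 8.51 and 6.26 RPKM, against 6.15, 5.58 and 5.43 RPKM in Six2- libraries. In P2 Six2+ replicate 2 alone, the copy exceeded Ndufs5. The call for Ndufs5 was lost under 8 of 16 alternatives. Coding sequence of Ndufs5 (GENCODE M21, GRCm38; gene at chr4:123712710-123718202, minus strand) and of the copy (chr16:42955631-42955949, plus strand) is shown because they bear on this result; the first 150 of the 319 bases they share, from the start codon, are given, and capitals mark the 2 bases that differ, T81C and A105G counted from 1 at the start codon, Ndufs5 first.
Ndufs5: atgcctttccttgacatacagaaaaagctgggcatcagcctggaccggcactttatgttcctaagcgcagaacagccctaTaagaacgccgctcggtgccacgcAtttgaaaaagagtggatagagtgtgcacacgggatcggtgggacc
BC002163: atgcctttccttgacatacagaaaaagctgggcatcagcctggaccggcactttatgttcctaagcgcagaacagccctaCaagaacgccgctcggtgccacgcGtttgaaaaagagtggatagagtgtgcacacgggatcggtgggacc
Over all 319 bases they are 99.4% identical. The labels do not say how reads that fit both were counted.

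In complex III, Uqcrfs1 was again among the calls, with 75.4, 52.6 and 89.0 RPKM in Cited1+ libraries, against 36.6 and 34.4 RPKM in P2 Six2+ libraries (0.97 ± 0.20, adjusted p = 0.0128). Uqcrq, a small subunit next to cytochrome b, had 60.7, 44.0 and 64.9 RPKM in Cited1+ libraries, against 30.1 and 32.0 RPKM in P2 Six2+ libraries (0.83 ± 0.17, adjusted p = 0.0116). Both were lost under 3 of 16 alternatives, and Uqcrc1 under 6. Uqcrc1, a core protein, had 101, 85.1 and 115 RPKM in Cited1+ libraries, against 69.0 and 59.4 RPKM in P2 Six2+ libraries (0.63 ± 0.15, adjusted p = 0.0189). Every Cited1+ library lay above both P2 libraries for these 3 genes.

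Complex II had no call, and its 4 differences were positive. Sdhd had 70.9, 42.2 and 74.3 RPKM in Cited1+ libraries, against 37.9 and 40.7 RPKM in P2 Six2+ libraries (0.61 ± 0.23, adjusted p = 0.0855). Sdha had 82.9, 77.3 and 85.4 RPKM in Cited1+ libraries, against 68.7 and 63.3 RPKM in P2 Six2+ libraries (0.31 ± 0.10, adjusted p = 0.0592). Sdhb and Sdhc differed by 0.29 and 0.31, with overlap (adjusted p = 0.199 and 0.290). Cycs had 28.5, 30.8 and 26.3 RPKM in Cited1+ libraries, against 34.7 and 28.1 RPKM in P2 Six2+ libraries, and overlapped (-0.13 ± 0.13, adjusted p = 0.462).

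Complex IV again had Cox4i2 as its lowest point, with 0.909, 0.501 and 0.560 RPKM in Cited1+ libraries, against 5.85 and 3.40 RPKM in P2 Six2+ libraries (-1.74 ± 0.23, adjusted p = 0.00194). Its Cited1+ mean, 0.657 RPKM, lay below the filter of 1 RPKM, so the main fit tested it only through its P2 level. The call held in the 15 alternatives that tested it, the fit with no filter among them. Its share of the Cox4i pair was 0.38%, 0.31% and 0.22% in Cited1+ libraries, against 4.49% and 2.09% in P2 Six2+ libraries. Cox4i1 had 240.2, 160.0 and 253 RPKM in Cited1+ libraries, against 124 and 159 RPKM in P2 Six2+ libraries (0.60 ± 0.22, adjusted p = 0.0749).

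Other cell types moved too. The interstitial stroma markers summed to 163 to 174 RPKM in Cited1+ libraries, against 59.2 and 69.3 RPKM in P2 Six2+ libraries, with 10 of 11 tested higher and 1 lower, and 1 marker at 0 in P2 Six2+ replicate 2. The endothelial sum was 8.75 to 21.2 RPKM in Cited1+ libraries, against 30.9 and 24.7 RPKM in P2 Six2+ libraries, with 1 of 5 tested lower. That sum rested on Cldn5, the 1 called, with 2.61, 1.94 and 2.35 RPKM in Cited1+ libraries, against 22.2 and 18.1 RPKM in P2 Six2+ libraries. Without Cldn5 the endothelial sum was 6.81 to 18.6 RPKM in Cited1+ libraries, against 8.65 and 6.55 RPKM in P2 Six2+ libraries, and overlapped. For macrophages and leukocytes it was 7.46 to 15.7 RPKM in Cited1+ libraries, against 26.0 and 23.9 RPKM in P2 Six2+ libraries, with 5 of 6 tested lower. Each of those 5 (Csf1r, Fcer1g, C1qa, C1qb and Laptm5) had a Cited1+ mean below the filter of 1 RPKM. They were thus tested only through their P2 level. The ureteric bud and collecting duct markers summed to 95.7 to 131 RPKM in Cited1+ libraries, against 44.9 and 43.5 RPKM in P2 Six2+ libraries, with 8 of 11 tested higher. The erythroid sum was 147 to 226 RPKM in Cited1+ libraries, against 62.7 and 32.0 RPKM in P2 Six2+ libraries, with 5 of 5 tested higher. The proximal tubule sum was 29.6 to 38.4 RPKM in Cited1+ libraries, against 29.5 and 17.5 RPKM in P2 Six2+ libraries, with 4 of 9 tested higher. Among the markers called higher, Dcn, Hbb-bt, Aqp2, Elf5, Hnf4a and Slc27a2 had P2 means below 1 RPKM. These were tested only through their Cited1+ level. The part of these cell types in the differences of the members, Cox4i2 among them, was not tested. Ndufa4l2 stayed low here, with 0.822, 1.18 and 0.881 RPKM in Cited1+ libraries, against 0.405 and 0.813 RPKM in P2 Six2+ libraries, below the level tested.

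Cox7b, a small common subunit, had 66.6, 54.6 and 67.9 RPKM in Cited1+ libraries, against 35.4 and 43.7 RPKM in P2 Six2+ libraries (0.66 ± 0.14, adjusted p = 0.0138). Cox7c had 169, 166 and 194 RPKM in Cited1+ libraries, against 119 and 144 RPKM in P2 Six2+ libraries (0.42 ± 0.13, adjusted p = 0.0465), and Cox6b1 had 172, 153 and 174 RPKM in Cited1+ libraries, against 135 and 114 RPKM in P2 Six2+ libraries (0.42 ± 0.12, adjusted p = 0.0411). The level of Cox7c is uncertain, since 22.1% of its 50-base words occur in other annotated genes. Both calls were lost under 10 of 16 alternatives. Cox6b2, Cox6a1, Cox7a2, Cox7a2l and Cox8a passed no test here (differences 0.062, 0.21, 0.65, 0.092 and 0.27; adjusted p = 0.775, 0.271, 0.0886, 0.613 and 0.137), and the signs of Cox6b2 and Cox7a2l turned under a rescaling.

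Complex V had 3 genes called higher. Atp5g1 had 75.3, 59.5 and 93.6 RPKM in Cited1+ libraries, against 46.2 and 41.1 RPKM in P2 Six2+ libraries (0.77 ± 0.18, adjusted p = 0.0207). Atp5k, the e subunit found where ATP synthases pair, had 100.4, 69.1 and 116 RPKM in Cited1+ libraries, against 58.6 and 57.4 RPKM in P2 Six2+ libraries (0.67 ± 0.20, adjusted p = 0.0450). Atp5d, the delta subunit of the central stalk, had 156, 164 and 180 RPKM in Cited1+ libraries, against 131 and 122 RPKM in P2 Six2+ libraries (0.39 ± 0.11, adjusted p = 0.0368). Groups did not overlap for any of the 3 genes. The calls were lost under 4 (Atp5g1), 8 (Atp5k) and 9 (Atp5d) of 16 alternatives. Complex V had no gene called higher without Cited1+ replicate 1, 1 without Cited1+ replicate 3 and 13 without Cited1+ replicate 2. In these fits 6.66%, 8.80% and 25.2% of all genes were called higher. The median difference of complex V was 0.41 without either P2 library, against 0.39 in the fit as reported.

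Among the ring isoforms, the shares of Atp5g2 and Atp5g3 overlapped between the groups and those of Atp5g1 did not. No share was tested. Atp5g1 held 14.1%, 14.0% and 15.2% of the 3 genes in Cited1+ libraries, against 12.9% and 10.9% in P2 Six2+ libraries. Atp5g2 held 45.3%, 51.5% and 43.4% of the 3 genes in Cited1+ libraries, against 51.4% and 57.8% in P2 Six2+ libraries, and Atp5g3 held 40.7%, 34.5% and 41.4% in Cited1+ libraries, against 35.7% and 31.3% in P2 Six2+ libraries. In level, Atp5g2 and Atp5g3 differed by 0.27 and 0.70 (adjusted p = 0.173 and 0.0512). Atp5e, the epsilon subunit, was chosen after its values were seen and had 99.2, 33.0 and 114 RPKM in Cited1+ libraries, against 23.6 and 31.8 RPKM in P2 Six2+ libraries (1.36 ± 0.48, adjusted p = 0.0688). Replicate 2 stood beside the P2 libraries.

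**Figure D4:**
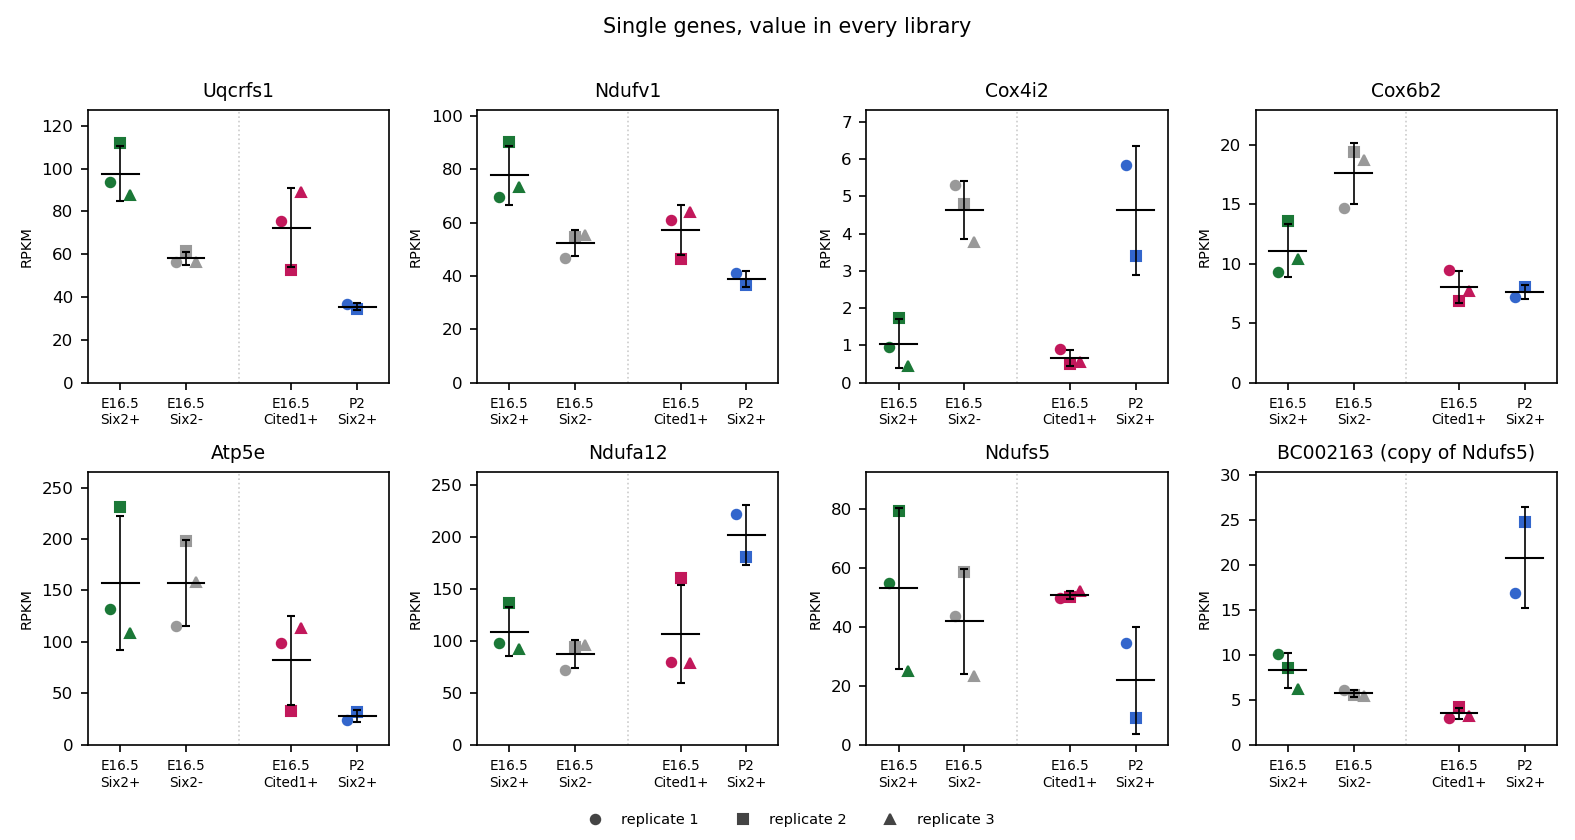
RPKM (y axis) in every library for 7 members and the Ndufs5 copy BC002163, in the 4 groups (x axis); symbols mark replicates, lines the mean and bars the SD, and the dotted line parts the 2 tables. Cox4i2 is at 1.75 RPKM or less in each Six2+ and Cited1+ library at E16.5 and at 3.40 RPKM or more in each Six2- and P2 Six2+ library, and Ndufa12 and Atp5e show Cited1+ replicate 2 beside the P2 libraries.

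All tested members together summed to 7557, 6367 and 8305 RPKM in Cited1+ libraries, against 5618 and 5764 RPKM in P2 Six2+ libraries, a ratio of means of 1.30, or 1.39 without Cited1+ replicate 2. The sums of complexes I to V did not overlap, with ratios between 1.26 and 1.35, while cytochrome c overlapped at 0.91. Members held 1.93% to 2.34% of the library sum in Cited1+ libraries, against 1.75% and 1.77% in P2 Six2+ libraries. Cytosolic ribosomal protein genes moved with them, with 31 of 78 called higher in Cited1+ cells, where 16.3% of all genes were, and a median of 0.55. This count was 0 without Cited1+ replicate 1 and with the replicate block, where 6.66% and 7.54% of all genes were called higher. It was 3 without Cited1+ replicate 3 and 65 without Cited1+ replicate 2, where 8.80% and 25.2% of all genes were called higher. Their share of the sum was 15.1% to 18.5% in Cited1+ libraries, against 12.1% and 13.6% in P2 Six2+ libraries. The part of this shift in the members' calls was not tested.

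Genes that build and serve the respiratory chain were taken from lists of assembly factors, import machinery, mitochondrial ribosome and related groups; their counts of higher genes stand beside 20.5% of all genes in Six2+ cells and 16.3% in Cited1+ cells. Of the complex I assembly factors, 8 of 14 tested were higher in Six2+ than in Six2- cells and none lower (median 0.40), and 7 of 14 were higher in Cited1+ than in P2 Six2+ cells (median 0.51). The 8 became 3 with a common total, where 13.1% of all genes were called higher. They became 4 without Six2+ replicate 1, Six2- replicate 1 or Six2- replicate 2, where 16.2%, 14.6% and 13.7% were. Without Six2+ replicate 2 they became 5, where 17.9% of all genes were called higher. The 7 became none without Cited1+ replicate 1 or 3, with no filter and with the replicate block. In those fits 6.66%, 8.80%, 5.42% and 7.54% of all genes were called higher. Without Cited1+ replicate 2 they became 10, with 1 lower, where 25.2% of all genes were called higher and 18.0% lower. The median of these factors was 0.39 without P2 Six2+ replicate 1 and 0.60 without P2 Six2+ replicate 2. Timmdc1, which helps assemble the membrane arm, had 12.03, 15.98 and 14.04 RPKM in Six2+ libraries, against 7.69, 9.49 and 8.55 RPKM in Six2- libraries (0.65 ± 0.14, adjusted p = 0.00725). Nubpl, which delivers iron-sulfur clusters to complex I, had 7.31, 6.17 and 9.02 RPKM in Cited1+ libraries, against 2.37 and 4.45 RPKM in P2 Six2+ libraries (0.98 ± 0.23, adjusted p = 0.0207). Complex IV assembly factors gave 7 of 23 higher in Six2+ cells (median 0.16), and 4 of 23 higher and 1 lower in Cited1+ cells (median 0.33). The 7 became 3 without Six2+ replicate 2 and 4 without Six2+ replicate 1 or with a common total; the 4 became 7 without Cited1+ replicate 2 and 2 without Cited1+ replicate 1. Complex III factors gave 1 of 5 higher and 1 lower in Six2+ cells and none in Cited1+ cells; the lower one was Uqcc2, with 42.4, 51.7 and 31.2 RPKM in Six2+ libraries, against 56.5, 76.5 and 88.2 RPKM in Six2- libraries (-0.81 ± 0.22, adjusted p = 0.0171). Complex II factors gave none of 4 in Six2+ cells and 1 of 4 higher in Cited1+ cells, and complex V factors with the inhibitor gave none of 4 in either.

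Mitochondrial ribosomal protein genes gave 23 of 77 higher in Six2+ cells (median 0.29) and 16 of 77 higher in Cited1+ cells (median 0.26), with none lower in either; the second count is near the background of 16.3% of all genes. In Six2+ cells it was 15 without Six2+ replicate 2, 11 without Six2- replicate 1 and 15 without Six2- replicate 2. In those fits 17.9%, 14.6% and 13.7% of all genes were called higher. In Cited1+ cells it was 3 or 4 without Cited1+ replicate 1 or 3, where 6.66% and 8.80% of all genes were called higher. It was 38 without Cited1+ replicate 2, where 25.2% of all genes were called higher. Mrpl23 had 61.7, 80.5 and 54.6 RPKM in Six2+ libraries, against 27.3, 28.9 and 25.3 RPKM in Six2- libraries (1.22 ± 0.16, adjusted p = 0.000313). Import genes gave 8 of 19 higher in Six2+ cells and 7 of 19 in Cited1+ cells; Hspd1, the mitochondrial chaperonin, had 277, 292 and 278 RPKM in Six2+ libraries, against 190, 188 and 189 RPKM in Six2- libraries (0.58 ± 0.13, adjusted p = 0.00734). Genes that copy and transcribe mitochondrial DNA gave 5 of 12 higher in Six2+ cells, where the helicase gene Peo1 had 15.8, 15.2 and 19.2 RPKM in Six2+ libraries, against 8.35, 8.20 and 10.1 RPKM in Six2- libraries (0.84 ± 0.14, adjusted p = 0.00157), and 2 of 12 in Cited1+ cells. The citric acid cycle gave 2 of 13 higher in each comparison, with Idh3b, a subunit of isocitrate dehydrogenase, among them in Six2+ cells (0.43, adjusted p = 0.047) and Cs, citrate synthase, in Cited1+ cells (0.49 ± 0.10, adjusted p = 0.0117). Of all genes, 13.7% to 20.1% were called higher in Six2+ cells when single libraries were left out. In Cited1+ cells the share was 6.66% to 25.2% when single Cited1+ libraries were left out. Without single libraries the import count ranged from 2 to 9 in Six2+ cells and 2 to 13 in Cited1+ cells, that of mitochondrial DNA genes from 2 to 4 and 0 to 4, and that of the citric acid cycle from 0 to 1 and 0 to 7; the highest Cited1+ counts came without Cited1+ replicate 2.

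Of the nuclear regulators of these genes, 1 of 8 tested was higher and 2 lower in Six2+ cells, and 2 of 9 were higher in Cited1+ cells. In Six2+ cells Nfe2l2, the antioxidant response factor, and Gabpa were lower (-0.86 and -0.48, adjusted p = 0.00159 and 0.0316), and Ppargc1b, a coactivator of mitochondrial genes, was higher (0.67, adjusted p = 0.0187). Esrra, a nuclear receptor that acts on respiratory chain genes, had 10.1, 7.34 and 10.6 RPKM in Cited1+ libraries, against 3.29 and 3.07 RPKM in P2 Six2+ libraries (1.29 ± 0.17, adjusted p = 0.00178). Ppargc1a, its coactivator, had 2.52, 3.06 and 2.72 RPKM in Cited1+ libraries, against 1.17 and 0.640 RPKM in P2 Six2+ libraries (0.997 ± 0.18, adjusted p = 0.00718). The P2 mean of Ppargc1a lay below the filter of 1 RPKM, so it was tested only through its Cited1+ level. Cited1+ replicate 2 was the lowest Cited1+ library for Esrra, though nearer the other Cited1+ libraries than the P2 libraries, and the highest for Ppargc1a. A link of either gene to the members was not tested.

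Promoters of 70 member genes were found in RefSeq (GRCm38.p6, windows of 300 bases across the start). Each was searched on both strands for cores of factors known to act on these genes. The core of NRF1, a palindrome seen in capitals in the sequences that follow, lay in the promoters of 5 member genes (7.1%) and of 1.07% of all 27025 genes. For the YY1 core AAGATGGCG the shares were 11.4% of member genes and 1.64% of all; for the ETS core CCGGAAGT, read by GABPA, they were 7.1% and 4.31%; and for the E-box CACGTG they were 7 of 70 member genes and 8.09% of all. None of these strings contains another. The 5 genes with the NRF1 core were Atp5g2, Atp5k, Ndufa11, Cox6a1 and Uqcrc1. Their upstream sequence is shown for the 3 in which the core lies within 150 bases before the start, with Uqcrfs1, holding none of the 4 letter strings in that stretch, beside them. Sequences are from RefSeq, 5′ to 3′ on the gene's strand, and capitals mark the NRF1 core.
Atp5g2 (chr15:102671048-102671197, minus strand): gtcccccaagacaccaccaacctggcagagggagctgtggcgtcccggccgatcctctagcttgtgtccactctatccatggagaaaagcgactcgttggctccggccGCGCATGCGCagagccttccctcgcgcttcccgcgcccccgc
Atp5k (chr5:108434400-108434549, minus strand): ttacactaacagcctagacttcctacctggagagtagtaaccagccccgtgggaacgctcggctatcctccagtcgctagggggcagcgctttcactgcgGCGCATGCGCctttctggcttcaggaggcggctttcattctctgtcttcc
Ndufa11 (chr17:56717612-56717761, plus strand): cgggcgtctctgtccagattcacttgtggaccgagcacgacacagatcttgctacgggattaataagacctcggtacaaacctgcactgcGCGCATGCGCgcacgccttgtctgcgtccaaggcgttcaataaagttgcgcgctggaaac
Uqcrfs1 (chr13:30545317-30545466, minus strand): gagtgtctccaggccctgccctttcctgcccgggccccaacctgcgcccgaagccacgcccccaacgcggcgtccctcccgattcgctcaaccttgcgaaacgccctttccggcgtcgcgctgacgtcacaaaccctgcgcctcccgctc
The core lies 42, 50 and 60 bases before the start, counted to its first base, in Atp5g2, Atp5k and Ndufa11. A match is a description of letters and says nothing about binding.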

How the data were processed

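Per the labels' protocols, stranded mRNA libraries (Kapa) were made from RNA isolated with a Qiagen micro kit. Among the tools in the submitters' processing notes are TopHat2, Partek and bcl2fastq, with mm10 as the build. How reads were counted, and whether by strand, is not stated there. The authors deposited 2 tables of values that they call TPM, but plain sums varied by 8.95% (CV) and length-weighted sums by 2.71%, so the deposited values were treated as RPKM; the planned test was kept. Of 24454 rows, 27 whose names had become dates were dropped. Here limma 3.58.1 (R 4.3.3) was fitted with a mean-variance trend to log2(RPKM + 1) of all genes with a mean of at least 1, within each table, with Benjamini-Hochberg adjustment over all genes and a threshold of 0.05. The code was checked on simulated data. Same-numbered Six2+ and Six2- libraries deviated together (r = 0.47, 0.455 and 0.404), so fits with the replicate number are given where they change a call. Members and lists were chosen with earlier results of these data known. Named members are, per complex, up to 4 called with the largest change, the 2 largest where fewer than 2 were called, and the isoforms, complex II and cytochrome c throughout. Alternatives changed the pseudocount, filter, trend, weights, scaling, block and libraries. Some results are not reported here.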

Additional observations from a re-analysis of the deposited data

How the results depend on the processing

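Of the members called in Six2+ against Six2- cells, Uqcrfs1 and Atp5sl were called under all 17 alternatives, and Cox4i2 in the 16 that tested it. The 7 higher members became 11 with array weights, 17 with the replicate block, 13 with the block and a common total (chosen after seeing the data), 4 with the median ratio and 2 to 11 when single libraries were left out; the 2 lower became 1 with a minimum mean of 5 and 1 to 2 without single libraries. Over all genes, 2440 were higher, against 3602 (30.3%) with array weights and 3603 (30.3%) with the replicate block. The count was 2264 (19.1%) with the block and a common total and 2021 (17.0%) with the median ratio. In these 4 fits 13.8%, 21.2%, 16.2% and 5.0% of members were called higher. Of all genes, 1552 were higher with a common total and 1618 to 2382 without single libraries. Lower were 2149 of all genes, and 1230 with a minimum mean of 5. In Cited1+ against P2 Six2+ cells, the 23 higher members became 54 with array weights, 2 with no filter, 13 with no trend, 5 with the replicate block, 12 with the block and a common total, and 2 to 56 without single libraries. The 2 lower became 4 with array weights, 1 with a minimum mean of 5, with no filter, with no trend and with the block, and 1 to 3 without single libraries. Over all genes, 1930 were higher, against 3515 with array weights, 1139 with no filter, 895 with the block, 1108 with the block and a common total and 791 to 3012 without single libraries; 1512 were lower, against 2369 with array weights, 868 with the block and 788 to 2145 without single libraries. In that pair the numbers do not pair the libraries (same-number r = 0.042 and -0.028). No P2 library has number 3, so with the block Cited1+ replicate 3 does not enter the difference. The members' median was 0.315 both with the block and without Cited1+ replicate 3. The fall in calls with the block is thus in part the loss of that library. Signs turned for members near 0. In Six2+ cells, Cox7b was -0.00944 with array weights, -0.0517 with a common total and also with the block, -0.0294 with the median ratio, -0.00107 when ribosomal, haemoglobin and top genes were left out of the scaling, and -0.131 to 0.189 without single libraries. Cycs was -0.0316 with array weights, -0.0264 with a common total and also with the block, -0.00389 with the median ratio and -0.106 to 0.245 without single libraries. Without single libraries Atp5g1 ranged from -0.0588 to 0.264, Atp5g3 from -0.0431 to 0.258 and Sdhc from -0.145 to 0.0939. In Cited1+ cells, Cox6b2 was -0.0152 with a common total and -0.0514 to 0.155 without single libraries, Cox7a2l was -0.0296 with the block and a common total and -0.0518 to 0.235 without single libraries, and Cycs ranged from -0.276 to 0.0182, with the cytochrome c sum (log2 ratio of means) at -0.282 to 0.0216. For each of these the cause was not tested. With 2 or 3 libraries a group, a small difference may not pass the test.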
